A study of Mus musculus with 42 samples.

Results

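The bone morphogenetic protein (BMP) and transforming growth factor beta (TGF-beta) pathway genes described here are 38 named genes: 14 ligands and ligand-handling proteins, 12 receptors, 8 antagonists and inhibitors, and 4 response genes. A member was taken as the probe set whose single gene symbol in the platform annotation is the gene's name. Each of the 38 members had exactly 1 probe set, among 19938 genes measured. RNA was measured on 42 whole-transcript arrays from adult CD1/129 mice aged 3 to 7 months, in 14 groups of 3 arrays that join a tissue with a genotype. The study asked which transcripts change in the reproductive tract when the Hoxa9,10,11 and Hoxd9,10,11 genes, which pattern the tract along its length, are mutated. Female tissues were uterus and oviduct, from mice in diestrus, and male tissues were vas deferens (vas) and caudal epididymis.

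Uterus and vas were each measured in 4 mutant genotypes. These were Hoxa9,10,11-/- (AKO), Hoxd9,10,11-/- (DKO), Hoxa9,10,11-/-d9,10,11+/- (AKDH) and Hoxa9,10,11+/-d9,10,11-/- (AHDK), beside wild type (WT). Oviduct and epididymis were measured in AKO and WT mice. All groups share the mixed CD1/129 background. The labels do not state how the Hox genes were mutated or whether any cell type was targeted, and they do not say whether the arrays' Hox probe sets lie in the altered part.

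Ligands of this family bind a pair of type I and type II serine/threonine kinase receptors, which phosphorylate SMAD proteins that move to the nucleus. BMPs act mainly through SMAD1, SMAD5 and SMAD8 and switch on the Id genes, while TGF-beta and activin act mainly through SMAD2 and SMAD3. Secreted antagonists such as Noggin and Chordin hold BMPs away from their receptors, follistatin holds activins, and the inhibitory SMADs feed back inside the cell. In the reproductive tract the family is known for regression of the Müllerian duct through the anti-Müllerian hormone receptor Amhr2, for the response of the uterus to an implanting embryo, and for fertility of female mice through Bmpr1b.

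Upstream sequences are shown for 1 receptor and 2 response genes. Bmpr1b is shown because it was called in more comparisons than any other member, and Id3 and Id4 because they are textbook targets of BMP signalling that were called together in the vas. Each sequence is the 250 bases before an annotated start, in RefSeq assembly GRCm38.p6, printed 5′ to 3′ on the gene's strand. Capitals mark every match on either strand to CAGAC, a Smad-binding core, to GGCGCC, a GC-rich element known from BMP targets, and to TTTAT or TTTAC, cores bound by posterior Hox proteins. The motifs TTTAT and its reverse complement ATAAA can overlap.
Bmpr1b, first start, chr3:141982265-141982514, minus strand: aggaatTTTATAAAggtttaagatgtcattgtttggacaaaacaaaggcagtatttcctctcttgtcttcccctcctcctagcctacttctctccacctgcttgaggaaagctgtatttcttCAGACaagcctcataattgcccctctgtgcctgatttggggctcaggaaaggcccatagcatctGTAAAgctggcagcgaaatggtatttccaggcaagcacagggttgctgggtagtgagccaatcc
Bmpr1b, second start, chr3:141931589-141931838, minus strand: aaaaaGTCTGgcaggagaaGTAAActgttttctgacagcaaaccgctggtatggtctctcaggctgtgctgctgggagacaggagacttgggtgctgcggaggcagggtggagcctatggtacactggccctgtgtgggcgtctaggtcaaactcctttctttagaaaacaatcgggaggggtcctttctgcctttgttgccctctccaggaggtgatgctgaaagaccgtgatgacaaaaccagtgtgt
Id3, chr4:136143572-136143821, plus strand: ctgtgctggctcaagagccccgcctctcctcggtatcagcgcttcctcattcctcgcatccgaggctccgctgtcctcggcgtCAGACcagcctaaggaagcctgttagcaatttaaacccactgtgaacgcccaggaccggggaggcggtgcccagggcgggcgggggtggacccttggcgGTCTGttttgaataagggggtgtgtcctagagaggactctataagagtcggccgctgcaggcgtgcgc
Id4, chr13:48260866-48261115, plus strand: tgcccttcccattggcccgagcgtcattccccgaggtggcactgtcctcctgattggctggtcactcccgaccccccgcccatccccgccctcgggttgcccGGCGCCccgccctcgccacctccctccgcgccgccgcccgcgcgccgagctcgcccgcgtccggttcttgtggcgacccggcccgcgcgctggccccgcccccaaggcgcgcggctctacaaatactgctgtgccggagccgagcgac
A match is a description of letters, not a binding site. RefSeq promoter entries were matched for 27 of the 38 members. Among those 27, CAGAC was found in 13, TTTAT in 8, GGCGCC in 7 and TTTAC in 5, where these motifs lie in 42.2%, 37.2%, 9.65% and 28.1% of 32536 promoter windows of the same length. A member was counted where any of its annotated starts had the motif, while those percentages are per window. Base composition was not matched, so the counts and percentages are not a test of enrichment.

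Every value below is a log2 value relative to the middle array of the same sex, because each probe set had a median of 0 both within the 21 female arrays and within the 21 male ones. A value of 0.00 is thus a middle level and not an absence, levels of different genes or of the 2 sexes cannot be compared, and signal over background is unknown. A difference is given as a log2 difference with its standard error (SE) and with the Benjamini-Hochberg adjusted p of a limma fit over all 19938 genes. A gene was called where that adjusted p was below 0.05. Replicates are called biological in the labels, which name no animals, so p-values measure the spread between these arrays. In whole tissue, fewer cells of a type and less RNA per cell cannot be told apart.

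The targeted genes were read first. Hoxa11 lay between -0.63 and -0.37 in AKO vas and between -0.84 and -0.44 in AKDH vas, against 0.43 to 1.38 in WT vas. It lay between -1.59 and 0.67 in AKO uterus, against 1.23 to 2.75 in WT uterus, and between -0.80 and -0.63 in AKO epididymis, against -0.01 to 0.76 in WT epididymis. In oviduct the ranges overlapped, at -2.10 to -1.69 in AKO and -1.99 to -0.77 in WT. Hoxd9 lay between -0.86 and -0.56 in DKO vas and between -0.70 and -0.66 in AHDK vas, against -0.26 to -0.13 in WT vas. Not every targeted gene separated the labels. Hoxd9 in DKO uterus, at 0.00 to 0.31, lay inside the WT uterus range of -0.10 to 0.50, and Hoxd10 averaged 0.38 in DKO uterus and 0.20 in WT uterus. Of the Hoxd genes measured, Hoxd11 was separate in AHDK uterus, at -0.21 to 0.25 against 0.36 to 1.19 in WT uterus, and none was lower and separate in DKO uterus. Hoxa9 lay at 0.08 to 0.34 in AKO vas, above the WT vas range of -0.32 to 0.00. A probe set outside the altered part would not check a label. The tissue labels were borne out by markers: all 8 oviduct markers were called higher in WT oviduct, set against WT uterus, and all 10 sperm markers were called higher in WT epididymis than in WT vas. 3 arrays were picked as standing apart. WT oviduct replicate 2 had a mean of 2.21 over ovary markers, against 0.53 and 0.15 in the other WT oviducts. Its Xist was at -5.92, against 0.00 and -0.40, and its Y-linked Eif2s3y at 2.09, against -0.01 and 0.01. These values do not match a female sample, the reason was not tested, and the array was kept in the main fits. AKDH vas replicate 3 had a mean of 0.53 over sperm markers, against -1.19 and -1.04. AKO epididymis replicate 1 had a mean of 4.49 over markers of proximal epididymis, against 0.77 and 0.87. Other arrays differed from their group and were not picked. WT oviduct replicate 3 had a mean of -1.59 over fibroblast and stroma markers, against -0.21 and -0.11. AKDH uterus replicate 1 had -0.81, against 0.29 and 0.56. AKDH vas replicate 2 had a mean of 1.7 over skeletal muscle markers, against -0.12 and -0.53. Each count of members called that changed without the 3 picked arrays is given both ways. All other counts below are given with all arrays only.

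Across the 10 comparisons of a mutant with WT, 15 of 380 member values were called, 6 higher and 9 lower, in 10 of the 38 genes. Most lay in the vas. AKDH vas had 9 members called, 2 higher and 7 lower, which is 23.7% of members where 24.3% of all genes were called, 9.57% higher and 14.8% lower. Without the arrays that stand apart it had 6. AKO vas had 4 members called, or 10.5%, where 9.35% of all genes were called. DKO vas had 1, or 2.63%, where 5.87% of all genes were called, and AHDK vas had 0 of 38 where 4.15% of all genes were called. All 4 shares lie near those of all genes. The median difference over the members was -0.14 in AKDH vas, with 31 of 38 below 0, where the median over all genes was -0.05. AHDK vas had 6 members at an unadjusted p below 0.05, where 17.7% of all genes had one. In AKO vas 10.5% of members were higher than WT without overlap and 26.3% lower, where 14.2% and 19% of all genes were. In AKDH vas these shares were 5.26% and 31.6% of members, where 13.8% and 27.7% of all genes were separate.

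In uterus, 1 member was called in AKDH, where 6.58% of all genes were called. No member was called in AKO, DKO or AHDK uterus, where 0.0903%, 0.973% and 3.53% of all genes were called. By limma's unadjusted p below 0.05, 9 members passed in each of AKO, DKO and AHDK uterus, where 9.35%, 15.3% and 21.4% of all genes did. Of the 2 tissues with only AKO mutants, epididymis had 0 members called where 0.782% of all genes were called, and 8 members at an unadjusted p below 0.05, as had 16% of all genes. Oviduct had 0 where 0% of all genes were called, and 3 members at an unadjusted p below 0.05, as had 3.05% of all genes. All comparisons within a tissue share their 3 WT arrays.

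**Figure D1:**
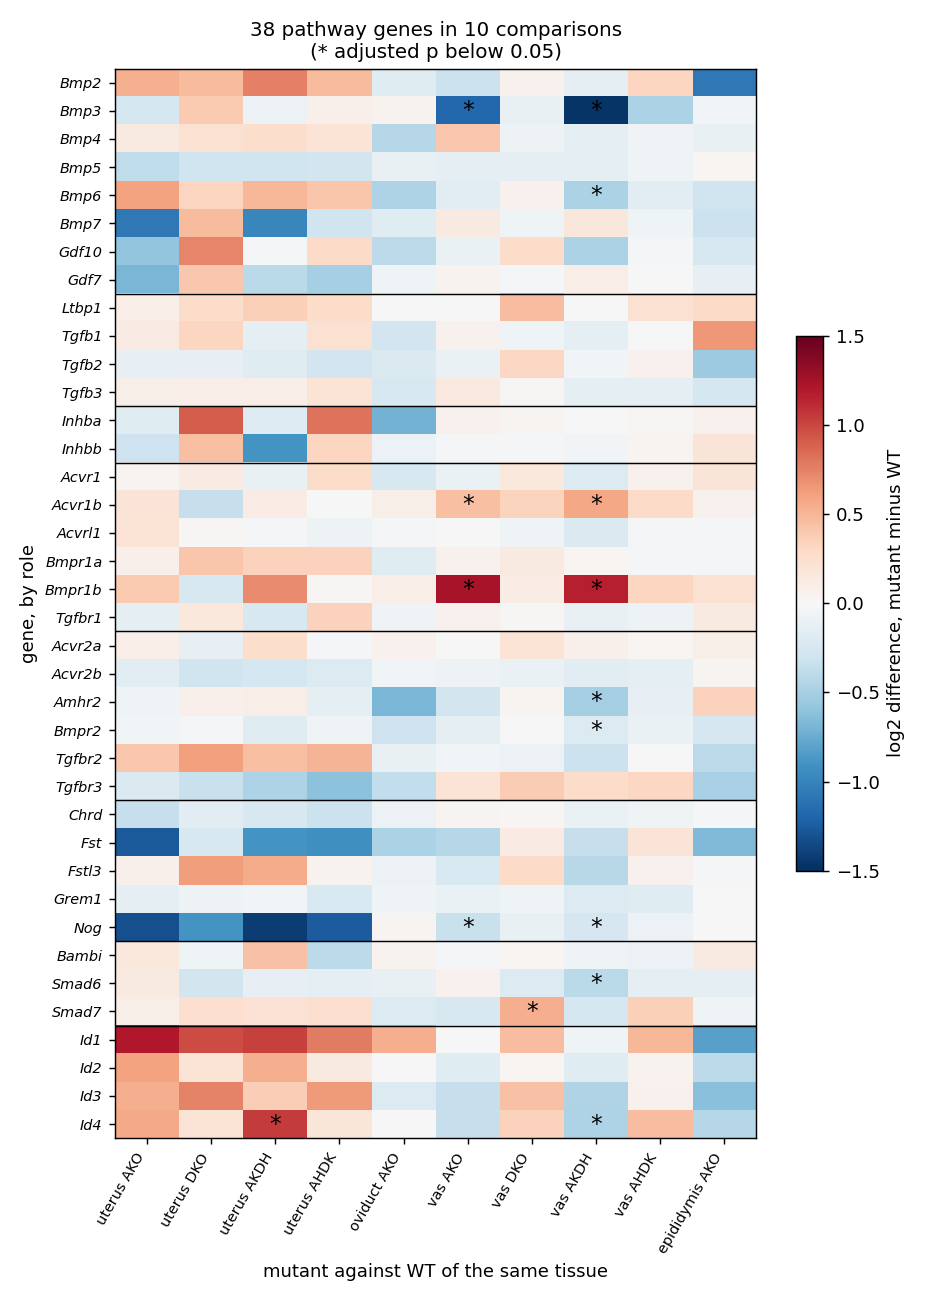
Log2 difference of each of the 38 members (down the page, by role) in each of the 10 comparisons of a mutant with WT (across), on a colour scale; a star marks an adjusted p below 0.05. The 15 starred cells lie in AKO, DKO and AKDH vas and in AKDH uterus, and the 4 Id genes are above 0 in every uterus column.

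Type I receptors gave the clearest difference. Bmpr1b, a type I receptor for BMPs and GDFs, was at 0.30, 0.22 and 0.09 in AKO vas and at 0.22, 0.20 and -0.03 in AKDH vas, against -0.87, -1.35 and -0.91 in WT vas. It was at -1.10, -0.88 and -0.81 in DKO vas and at -0.84, -0.77 and -0.56 in AHDK vas. Both genotypes that lack Hoxa9,10,11 on both alleles lay above every other vas array, and the DKO and WT ranges overlapped. Bmpr1b rose by a log2 difference of 1.24 in AKO (SE 0.13, limma adjusted p = 0.000239) and of 1.17 in AKDH (SE 0.13, adjusted p = 0.000133). Its difference was 0.32 in AHDK (SE 0.13, adjusted p = 0.222), which was not called. DKO against AKO vas gave -1.14 (SE 0.13, adjusted p = 0.000282), in a comparison with 5 members called (13.2%) where 17.8% of all genes were called, and with 6 without the arrays that stand apart. These 3 calls held when any single array was left out, with values from 1.09 to 1.33 for AKO, from 1.02 to 1.26 for AKDH and from -1.20 to -1.05 for DKO against AKO.

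WT epididymis sat above WT vas for Bmpr1b as well. The gene was at 0.00, 0.16 and 0.10 in WT epididymis, against -0.87, -1.35 and -0.91 in WT vas, a log2 difference of 1.13 (SE 0.14, adjusted p = 1.72e-05). AKO epididymis had 0.01, 0.58 and 0.37, which overlaps WT epididymis. The effect of AKO in epididymis minus its effect in vas was -1.01 (SE 0.20, adjusted p = 0.00646), by the interaction term of the fit over all male arrays. That term called 2 members (5.26%) where 7.22% of all genes were called. AKO vas thus lay within the range of Bmpr1b levels seen in AKO and WT epididymis. The mean over 9 markers of proximal epididymis was 0.13, 0.13 and -0.07 in AKO vas, against -0.78, -1.33 and -0.85 in WT vas, with 2 of 9 called higher. Their differences ran from -1.02 to 4.57 with a median of -0.02, and 4 were above 0 and 5 below. That mean was -0.09, 0.00 and -0.54 in AKDH vas and -0.31, -0.39 and -0.06 in AHDK vas, where Bmpr1b was called in AKDH and not in AHDK. The part of these markers in the Bmpr1b difference was not tested.

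**Figure D2:**
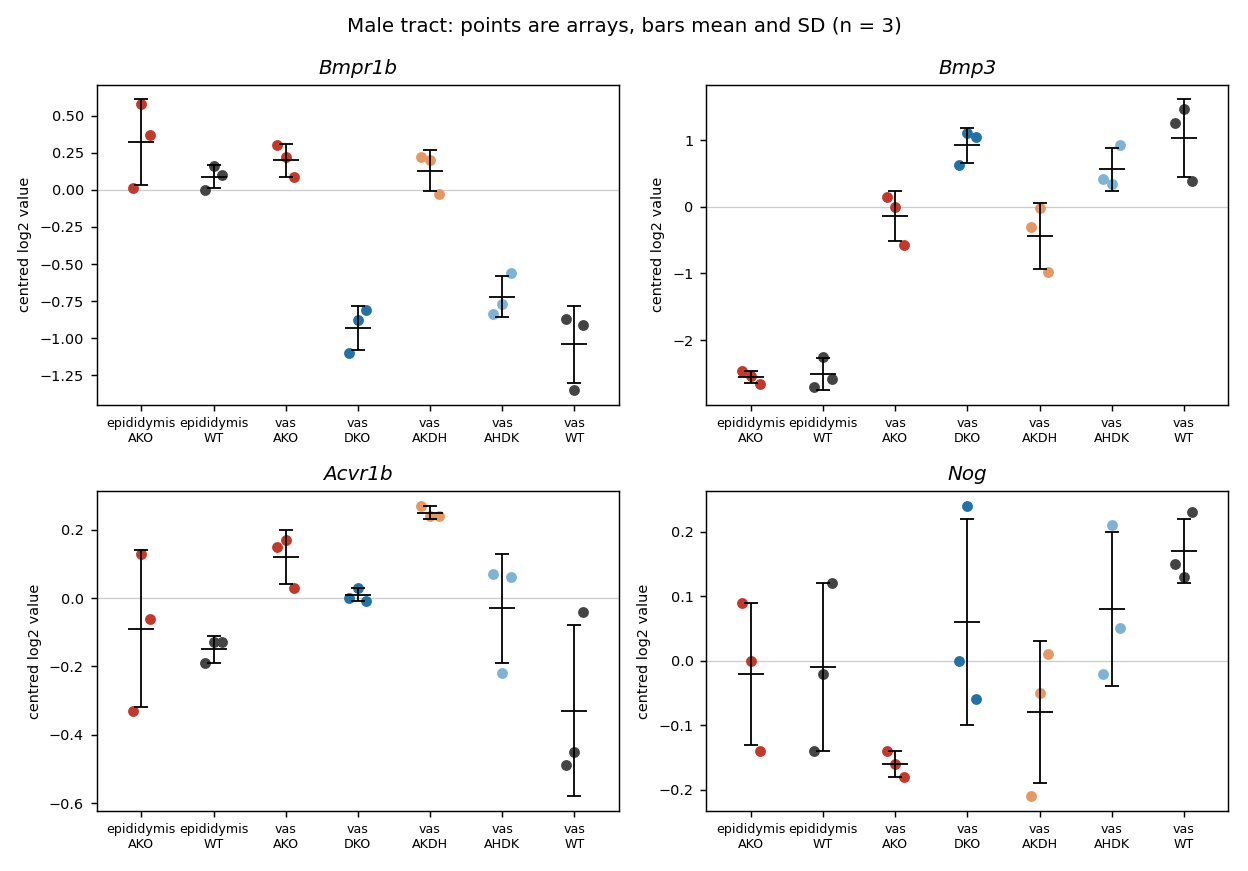
Centred log2 value of Bmpr1b, Bmp3, Acvr1b and Nog in epididymis (AKO, WT) and vas (AKO, DKO, AKDH, AHDK, WT); points are arrays, bars the mean and SD (n = 3). Bmpr1b in AKO and AKDH vas sits between -0.03 and 0.30, above all DKO, AHDK and WT vas arrays, and Bmp3 lies at -2.25 or lower in every epididymis array.

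In the female tract Bmpr1b separated the tissues. It was at 2.40, 2.14 and 2.80 in WT oviduct, against -0.39, -0.19 and -0.30 in WT uterus, a log2 difference of 2.74 (SE 0.26, adjusted p = 6.44e-07). That comparison called 10 members (26.3%), 6 higher and 4 lower, where 23.9% of all genes were called, 14.5% higher and 9.39% lower, and 9 without the arrays that stand apart. AKO oviduct was at 2.42, 2.40 and 2.83, so all 6 oviduct arrays lay above every uterus array. AKDH uterus spread from -0.03 to 1.09 and DKO uterus from -1.03 to -0.14, and no uterus mutant was called.

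Acvr1b, the type I receptor used by activin and nodal, was also called higher in AKO and AKDH vas. It was at 0.15, 0.17 and 0.03 in AKO and at 0.27, 0.24 and 0.24 in AKDH, against -0.49, -0.45 and -0.04 in WT. Neither mutant overlapped WT, although WT replicate 3 lay apart from the other WT arrays. The log2 difference was 0.45 in AKO (SE 0.11, adjusted p = 0.0226) and 0.58 in AKDH (SE 0.11, adjusted p = 0.00277). DKO vas, at 0.00, 0.03 and -0.01, also lay above all WT arrays and gave 0.33 (adjusted p = 0.0968), which was not called. Without WT replicate 3 Acvr1b was called in DKO and in AHDK vas. With the mean over 10 smooth muscle markers as a covariate it was called in DKO vas. The difference is thus not limited to AKO and AKDH. The AKO call was lost without WT replicate 1 or 2 or AKO replicate 1 or 2, with an adjusted p of up to 0.098, and the AKDH call held in each case. In the female tract Acvr1b was at 0.36, 0.42 and 0.48 in WT oviduct, against 0.19, -0.12 and -0.34 in WT uterus (difference 0.51, SE 0.15, adjusted p = 0.0201). That call was lost without uterus WT replicate 2 or 3 or oviduct WT replicate 3, with an adjusted p of up to 0.101.

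The other 4 type I receptors were called in no mutant. Tgfbr1, the TGF-beta type I receptor, gave -0.52 in WT oviduct against WT uterus (SE 0.17, adjusted p = 0.0362) and -0.21 in WT epididymis against WT vas (SE 0.07, adjusted p = 0.0325). The female Tgfbr1 call was lost without uterus WT replicate 1 or 2 or oviduct WT replicate 1 or 3, with an adjusted p of up to 0.159. The male call was lost without any single array except vas WT replicate 1, with an adjusted p of up to 0.105. Acvr1, a BMP type I receptor, was at -0.15, -0.38 and -0.68 in WT epididymis, against 0.11, 0.05 and 0.04 in WT vas. Its difference of -0.47 (SE 0.15, adjusted p = 0.0322) was lost without any single array except epididymis WT replicate 1, with an adjusted p of up to 0.164. Acvr1 is the only member found within 20 Mb of Hoxa10 or Hoxd10, and it lies with Hoxd10 on mouse chromosome 2. Distances to the HoxB and HoxC clusters were not measured. Bmpr1a, a widely expressed BMP receptor, and Acvrl1, an endothelial one, were called nowhere.

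Type II receptors moved less. Amhr2, the receptor for anti-Müllerian hormone, was at -0.29, -0.34 and -0.40 in AKDH vas, against 0.18, 0.29 and 0.00 in WT vas, with no overlap. Its log2 difference was -0.50 (SE 0.15, adjusted p = 0.0325), and the call was lost without the arrays that stand apart (-0.47, adjusted p = 0.0721). Leaving out any one of WT replicate 1 or 2 or the 3 AKDH arrays also lost it, with an adjusted p of up to 0.114. With the mean over 10 smooth muscle markers as a covariate Amhr2 gave -0.13 (adjusted p = 0.749), and 8 of those markers were called lower in AKDH vas. Bmpr2, the main BMP type II receptor, was at 0.00, -0.09 and -0.14 in AKDH vas, against 0.24, 0.12 and 0.05 in WT vas. It fell by 0.21 (SE 0.07, adjusted p = 0.0377), with -0.18 and an adjusted p of 0.0966 without the arrays that stand apart. Without WT replicate 1 or 2 or AKDH replicate 2 or 3 the adjusted p reached up to 0.134, and with the smooth muscle mean as a covariate Bmpr2 gave 0.02 (adjusted p = 0.919).

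Between tissues, Amhr2 was at 0.58, 1.53 and 0.39 in WT oviduct, against 0.00, -0.20 and -0.18 in WT uterus, and was called higher in oviduct (0.96, SE 0.21, adjusted p = 0.00333). The high oviduct value is the array with raised ovary markers. The call held without it, but was lost in a fit on only the groups compared. Ovary markers were higher in WT oviduct, with 6 of 10 called, and with their mean as a covariate Amhr2 gave 0.40 (adjusted p = 0.0694), while Bmpr1b gave 2.98 (adjusted p = 6.57e-06). AKO oviduct, at 0.06, 0.33 and 0.06, lay below all WT oviduct arrays with a difference of -0.69 (SE 0.30, adjusted p = 0.993). Bmpr2 was lower in WT epididymis than in WT vas by -0.39 (SE 0.11, adjusted p = 0.0129), although epididymis WT replicate 1, at 0.07, lay inside the vas range, and the adjusted p was up to 0.077 without vas WT replicate 1 or epididymis WT replicate 3. Activin receptors Acvr2a and Acvr2b, the TGF-beta receptor Tgfbr2 and its co-receptor Tgfbr3 were called in none of the 20 comparisons. WT epididymis against WT vas called 12 members (31.6%), 4 higher and 8 lower, where 28.1% of all genes were called, 11.2% higher and 16.8% lower, and 14 without the arrays that stand apart.

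Among ligands, Bmp3 varied most in the male tract. Bmp3 is an atypical member of the family that opposes other BMPs and activin. It was at 0.14, 0.00 and -0.57 in AKO vas and at -0.31, -0.02 and -0.98 in AKDH vas, against 1.25, 1.47 and 0.38 in WT vas. DKO vas was at 0.63, 1.10 and 1.05 and AHDK vas at 0.42, 0.34 and 0.93. AKO and AKDH lay below all WT arrays, while DKO and AHDK overlapped WT. Bmp3 fell by 1.18 in AKO (SE 0.32, adjusted p = 0.0365) and by 1.47 in AKDH (SE 0.32, adjusted p = 0.00614). DKO against AKO vas gave 1.07 (SE 0.32, adjusted p = 0.036).

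The AKDH call for Bmp3 held when any single array was left out, but was lost in a fit on only the groups compared. The AKO call held only without WT replicate 3, with values from -1.51 to -0.96 and an adjusted p of up to 0.147, and the call between DKO and AKO was lost without any one of the 6 arrays, with an adjusted p of up to 0.137. Fat and muscle markers moved with Bmp3. The mean over 9 adipocyte markers was 0.67, 0.21 and 1.22 in AKO vas and 1.28, 1.02 and 1.13 in AKDH vas, against -1.20, -0.62 and 0.03 in WT vas, with 6 of 9 called higher in AKO and 8 of 9 in AKDH. The mean over 10 smooth muscle markers was 0.02, 0.09 and -0.36 in AKO and -0.08, -0.37 and -0.46 in AKDH, against 0.77, 0.70 and 0.27 in WT, with 2 of 10 called lower in AKO and 8 of 10 in AKDH. With the adipocyte mean as a covariate Bmp3 gave -0.20 in AKO (adjusted p = 0.958) and -0.17 in AKDH (adjusted p = 0.911). With the smooth muscle mean it gave -0.93 (adjusted p = 0.287) and -1.14 (adjusted p = 0.184). Neither mean overlapped between WT vas and AKO or AKDH vas, so these fits cannot separate the marker mean from genotype. The same limit holds for the other members fitted with these means in AKO and AKDH vas. A call lost there does not tell which a gene follows.

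The same covariates left Bmpr1b called. With the adipocyte mean it was 1.39 in AKO (adjusted p = 0.0123) and 1.37 in AKDH (adjusted p = 0.0289), and with the smooth muscle mean 1.20 (adjusted p = 0.00607) and 1.11 (adjusted p = 0.0108). Acvr1b lost its calls: with the adipocyte mean it was 0.33 in AKO (adjusted p = 0.518) and 0.42 in AKDH (adjusted p = 0.385), and with the smooth muscle mean 0.24 (adjusted p = 0.341) and 0.31 (adjusted p = 0.21). Of the members called against WT, the smooth muscle covariate left 1 of 4 called in AKO vas and 1 of 9 in AKDH vas, Bmpr1b in both. AHDK vas also had 8 of 9 adipocyte markers called higher, with means of 1.18, 1.43 and 0.88, and no member called. DKO vas had none of them called, with means of -0.24, -0.55 and -0.40.

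Bmp3 also marked vas against epididymis. It was at -2.71, -2.25 and -2.59 in WT epididymis, against 1.25, 1.47 and 0.38 in WT vas, a log2 difference of -3.55 (SE 0.28, adjusted p = 1.73e-07). This was the largest difference of any member in any comparison, and AKO epididymis lay at -2.47, -2.54 and -2.66, inside the WT epididymis range. In the same comparison all 10 smooth muscle markers were called lower in WT epididymis. In uterus Bmp3 was at 0.40, 0.32 and 0.18 in DKO, against -0.49, -0.34 and -0.22 in AKO, and was the only member called between them (0.65, SE 0.10, adjusted p = 0.0282), or 2.63% of members where 0.186% of all genes were called. That call was lost without AKO replicate 1 or 2 or any one DKO array, with an adjusted p of up to 0.139. WT uterus lay between, at 0.00, -0.18 and -0.10, and DKO against WT gave 0.39 (SE 0.10, adjusted p = 0.0825).

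Bmp6, a BMP close in sequence to Bmp7, was at -0.36, -0.38 and -0.37 in AKDH vas, against 0.18, 0.01 and 0.12 in WT vas. It fell by 0.47 (SE 0.12, adjusted p = 0.0165), with an adjusted p of 0.0553 without WT replicate 1. The gene was at 0.36, 0.67 and 0.75 in WT oviduct, against -0.44, -0.35 and -0.66 in WT uterus (difference 1.07, SE 0.19, adjusted p = 0.000625), a call that held when any single array was left out. Bmp6 was at 0.20, 0.37 and -0.18 in AKO oviduct and at 0.21, 0.42 and -0.27 in AKO uterus, which overlapped. The AKO effect in oviduct minus that in uterus was -1.06 (SE 0.27, adjusted p = 0.618). That term called 0 members where 0% of all genes were called, with 7 members and 4.25% of all genes at an unadjusted p below 0.05. AKO epididymis was at -0.10, -0.04 and -0.13, against 0.26, 0.27 and 0.10 in WT epididymis (-0.30, SE 0.07, adjusted p = 0.127).

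Bmp7, known for its role in kidney and urogenital development, was at -1.13, -0.37 and -0.49 in AKO uterus and at -1.11, -0.15 and -0.48 in AKDH uterus, against 0.42, -0.03 and 0.82 in WT uterus. DKO uterus was at 0.91, 1.03 and 0.67. AKO and AKDH lay below all WT arrays, but the differences were not called, at -1.07 in AKO (SE 0.27, adjusted p = 0.174) and -0.98 in AKDH (SE 0.27, adjusted p = 0.0514). DKO against AKO gave 1.53 (SE 0.27, adjusted p = 0.051). Gdf7, a BMP-type ligand known for its part in seminal vesicle development in mice, was at -0.91, -1.45 and -1.54 in WT oviduct, against 0.66, -0.02 and 0.84 in WT uterus (-1.80, SE 0.42, adjusted p = 0.00524). That Gdf7 call held when any single array was left out. In the male tract Bmp7 was lower in WT epididymis than in WT vas by -0.41 (SE 0.15, adjusted p = 0.0426), a call lost without any one array, with an adjusted p of up to 0.128.

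Bmp2, Bmp4, Bmp5 and Gdf10 were called in none of the 20 comparisons, nor were the activin subunits Inhba and Inhbb. Bmp4 was at -0.64, -0.28 and -0.75 in AKO oviduct and -0.16, -0.16 and -0.05 in WT oviduct (-0.43, SE 0.13, adjusted p = 0.993). Bmpr1a gave -0.18 there (SE 0.05, adjusted p = 0.993).

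**Figure D3:**
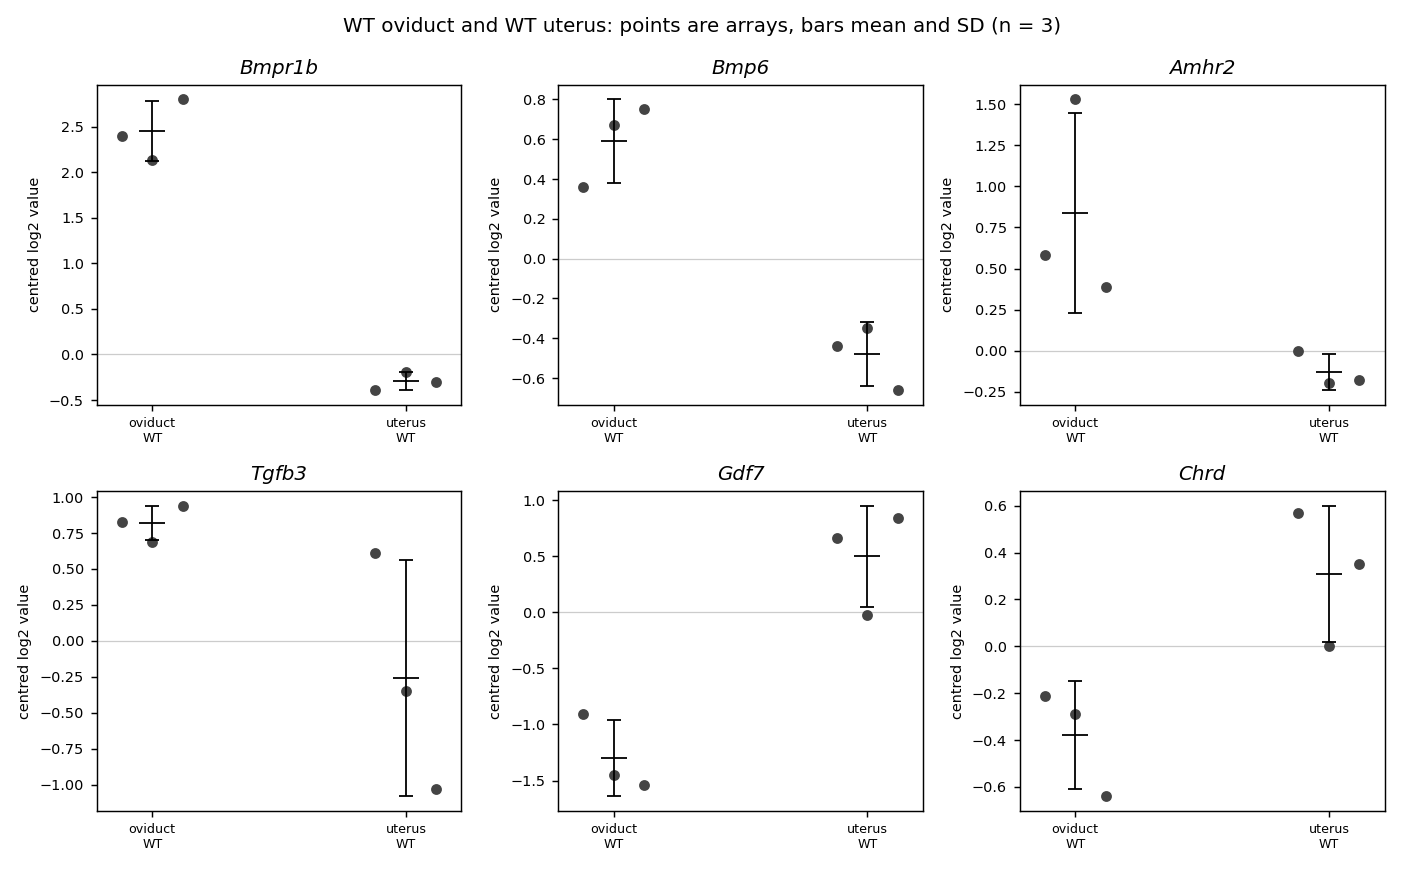
Centred log2 value of Bmpr1b, Bmp6, Amhr2, Tgfb3, Gdf7 and Chrd in WT oviduct and WT uterus; points are arrays, bars the mean and SD (n = 3). The tissues do not overlap in any of these 6 genes, which were picked from the called members. The first 4 are higher in oviduct and Gdf7 and Chrd are lower. Of all genes, 19.4% were separate and higher in oviduct and 20.5% separate and lower, as were 21.1% and 13.2% of members.

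Of the TGF-beta ligands, none was called in any mutant against WT. Tgfb1, which acts on immune and stromal cells, was at 0.92, 0.98 and 0.99 in AKO epididymis, against 0.09, 0.43 and 0.43 in WT epididymis. Tgfb2 was at -0.12, 0.16 and 0.10 in AKO epididymis, against 0.66, 0.57 and 0.55 in WT epididymis. Neither gene's groups overlapped. Of all genes, 13.1% were higher and 9.02% lower in AKO epididymis without overlap, as were 7.89% and 23.7% of members. The log2 differences were 0.65 for Tgfb1 (SE 0.11, adjusted p = 0.0631) and -0.55 for Tgfb2 (SE 0.09, adjusted p = 0.0644), just outside the threshold. In vas Tgfb1 was at 0.07, 0.07 and -0.06 in AKO, against -0.16, 0.12 and -0.09 in WT, and the AKO effect in epididymis minus that in vas was 0.58 (SE 0.15, adjusted p = 0.0319). That call was lost in 6 of the 12 fits that left out 1 array, namely vas WT replicate 2, vas AKO replicate 1 or 3, epididymis WT replicate 1 or epididymis AKO replicate 2 or 3, with an adjusted p of up to 0.0898.

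Sperm and muscle markers moved with the epididymis comparison. The mean over 10 sperm markers was -0.85, -0.54 and -0.62 in AKO epididymis, against 3.19, 2.03 and 2.32 in WT epididymis, with 6 called lower. The mean over smooth muscle markers was -1.63, -1.20 and -1.75 in AKO epididymis, against -0.19, -0.67 and -0.80 in WT epididymis, with 2 called lower. Their part in the Tgfb1 and Tgfb2 values was not tested.

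Between WT tissues, Tgfb3 was at 0.83, 0.69 and 0.94 in oviduct, against 0.61, -0.35 and -1.03 in uterus (1.08, SE 0.27, adjusted p = 0.00826). The WT uterus arrays were widely spread, and the value ran from 0.69 to 1.51 when single arrays were left out, always with a call. The Tgfb3 call was lost under quantile normalization and in a fit on only the groups compared. Tgfb1 was higher in WT epididymis than in WT vas by 0.36 (SE 0.11, adjusted p = 0.0195) with overlapping arrays, and an adjusted p of up to 0.0882 without vas WT replicate 1 or 3 or epididymis WT replicate 2 or 3. Ltbp1, which binds latent TGF-beta to the matrix, was at 0.84, 0.59 and 0.39 in WT epididymis, against 0.00, -0.09 and -0.67 in WT vas (0.86, SE 0.28, adjusted p = 0.0294). Without vas WT replicate 3 or epididymis WT replicate 1 or 2 its adjusted p was up to 0.136.

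Of the secreted antagonists, Nog was called in 2 vas genotypes. Noggin binds BMPs and blocks their receptor contact. Nog was at -0.14, -0.16 and -0.18 in AKO vas and at -0.21, -0.05 and 0.01 in AKDH vas, against 0.15, 0.13 and 0.23 in WT vas, with no overlap. It fell by 0.33 in AKO (SE 0.08, adjusted p = 0.0307) and by 0.25 in AKDH (SE 0.08, adjusted p = 0.0493). The AKO call was lost without any one of its 6 arrays, with an adjusted p between 0.0687 and 0.0907, and the AKDH call held only without AKDH replicate 3, with an adjusted p of up to 0.157.

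In the female tract Nog was highest in WT uterus. It was at -0.05, 0.06 and 0.15 in AKO uterus and at 0.12, 0.36 and 0.93 in DKO uterus. AKDH uterus was at -0.06, 0.00 and -0.07 and AHDK uterus at -0.04, 0.42 and -0.01, against 2.72, 0.32 and 1.07 in WT uterus. The 3 WT uteri differed widely, and AKO and AKDH lay below all of them. Differences ran from -1.42 in AKDH (SE 0.44, adjusted p = 0.0787) to -0.90 in DKO, and none was called. WT oviduct was at -0.03, -0.06 and -0.20 and lay below WT uterus by -1.47 (SE 0.39, adjusted p = 0.0112), a call kept when any single array was left out, with values from -1.99 to -0.79. That call was lost in a fit on only the groups compared.

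Chrd, which encodes the BMP antagonist Chordin, differed in opposite senses between the tissues of the tracts. It was at -0.21, -0.29 and -0.64 in WT oviduct, against 0.57, 0.00 and 0.35 in WT uterus (-0.69, SE 0.18, adjusted p = 0.0109). It was at 0.54, 0.74 and 0.52 in WT epididymis, against -0.03, 0.05 and -0.10 in WT vas (0.63, SE 0.10, adjusted p = 0.000128). The male call held when any single array was left out, and the female call had an adjusted p of up to 0.0682 without uterus WT replicate 1 or oviduct WT replicate 3. Fst, which encodes the activin-binding protein follistatin, lay between -1.10 and -0.38 in WT epididymis, against 0.75, 0.49 and -0.19 in WT vas (-1.18, SE 0.33, adjusted p = 0.0122), with an adjusted p of up to 0.0627 without vas WT replicate 1 or epididymis WT replicate 2. The antagonists Grem1 and Fstl3 were called nowhere.

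The inhibitory SMADs and the Id genes are themselves induced by BMP signalling. Smad7, which blocks type I receptors of the whole family, was at 0.55, 0.75 and 0.75 in DKO vas, against 0.24, 0.04 and 0.12 in WT vas. It rose by 0.55 in DKO (SE 0.12, adjusted p = 0.0234), with an adjusted p of up to 0.0955 without WT replicate 2 or DKO replicate 2 or 3. AHDK vas was at 0.64, 0.47 and 0.37, above all WT arrays (0.36, SE 0.12, adjusted p = 0.124). AKO vas was at -0.32, -0.02 and 0.00, so DKO exceeded AKO by 0.80 (SE 0.12, adjusted p = 0.00106).

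Id3 and Id4 followed the same order between those mutants. Id proteins are helix-loop-helix factors without a DNA-binding region that hold back differentiation. Id3 was at 0.48, 0.89 and 0.57 in DKO vas, against -0.29, -0.19 and 0.07 in AKO vas (0.78, SE 0.16, adjusted p = 0.00541). Id4 was at 0.64, 0.74 and 0.49 in DKO vas, against -0.20, 0.02 and 0.00 in AKO vas (0.68, SE 0.15, adjusted p = 0.00941). WT vas was at 0.02, 0.33 and 0.26 for Id3, overlapping AKO, and at 0.19, 0.12 and 0.55 for Id4, overlapping DKO. The Smad7, Id3 and Id4 calls between DKO and AKO held when any single array was left out. With the smooth muscle mean as a covariate Id3 gave 0.81 (adjusted p = 0.0744) and Id4 0.58 (adjusted p = 0.173), while Smad7 stayed called at 0.75 (adjusted p = 0.0384). In this comparison 8 of 10 smooth muscle markers were called higher in DKO. Their mean did not overlap between DKO and AKO vas, so that fit cannot separate it from genotype.

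In AKDH vas 2 genes of these groups fell. Id4 was at -0.18, -0.09 and -0.24 in AKDH vas, against 0.19, 0.12 and 0.55 in WT vas, and fell by 0.46 (SE 0.15, adjusted p = 0.0465). That call was lost without any one array, with an adjusted p of up to 0.159, and was -0.42 (adjusted p = 0.0994) without the arrays that stand apart. Smad6, the inhibitory SMAD most specific for BMP receptors, was at -0.08, -0.37 and -0.24 in AKDH vas, against 0.24, 0.26 and 0.00 in WT vas. It fell by 0.40 (SE 0.11, adjusted p = 0.0231), with an adjusted p of up to 0.0856 without WT replicate 1 or 2 or AKDH replicate 2. With the smooth muscle mean as a covariate it gave -0.12 (adjusted p = 0.683). AKO vas was at 0.21, 0.22 and 0.28, inside and just above the WT range, and AKDH against AKO gave -0.47 (SE 0.11, adjusted p = 0.0689). No member was called between AKDH and AKO vas, where 1.29% of all genes were called, with 4 members and 14.2% of all genes at an unadjusted p below 0.05. The next members there were Bmp4 (-0.54, adjusted p = 0.221), Tgfbr1 (-0.18, adjusted p = 0.243) and Bmp6 (-0.31, adjusted p = 0.277). Between AHDK and DKO vas, where 0.366% of all genes were called, no member was, with 2 members and 13.1% of all genes at an unadjusted p below 0.05. Id3 had the smallest adjusted p there (-0.38, adjusted p = 0.318), followed by Acvr2a (-0.18, adjusted p = 0.373), Bmp6 (-0.23, adjusted p = 0.456) and Smad7 (-0.19, adjusted p = 0.54).

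**Figure D4:**
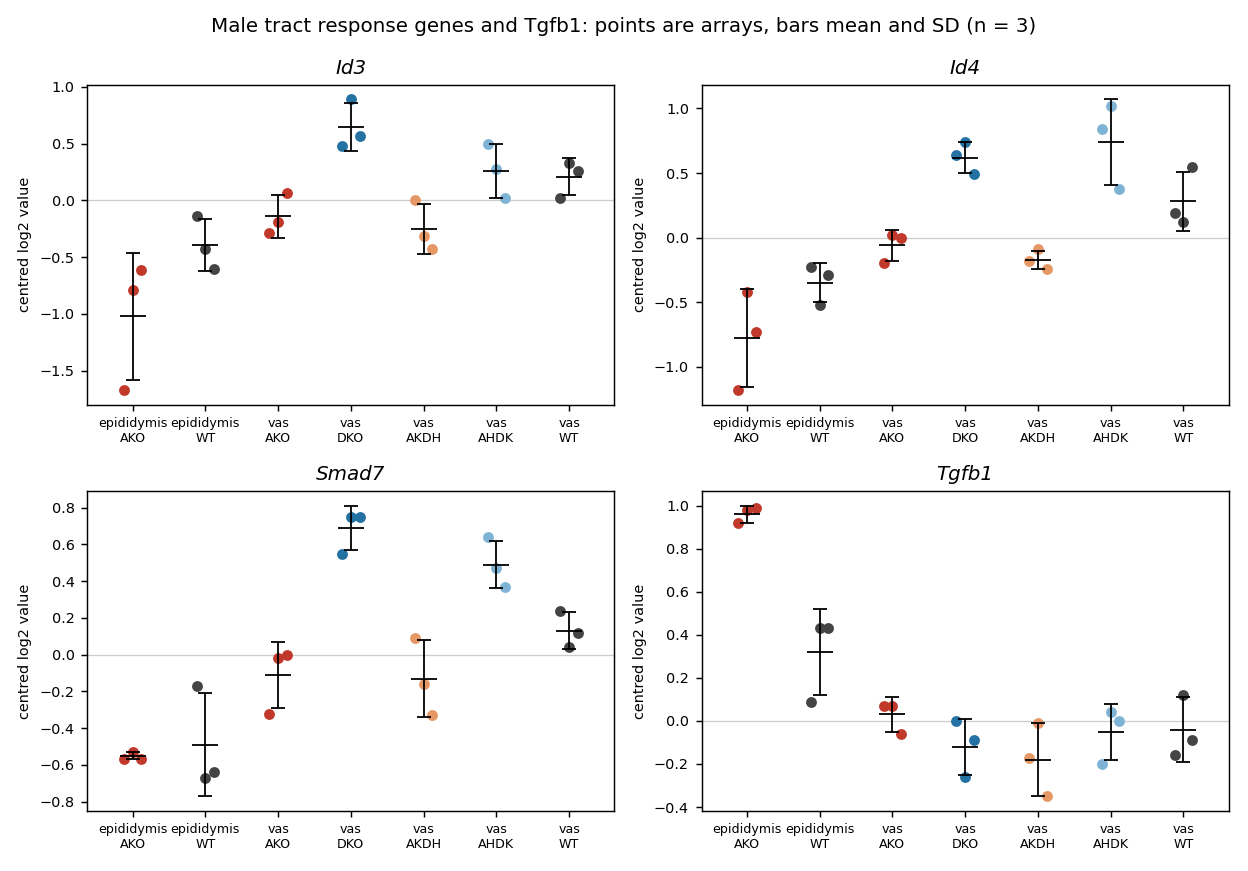
Centred log2 value of Id3, Id4, Smad7 and Tgfb1 in epididymis (AKO, WT) and vas (AKO, DKO, AKDH, AHDK, WT); points are arrays, bars the mean and SD (n = 3). In vas every DKO array lies above every AKO array for Id3, Id4 and Smad7, and Tgfb1 is highest in the 3 AKO epididymis arrays, at 0.92 to 0.99.

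In uterus all 4 Id genes had positive differences in all 4 mutants, and their median was 0.58 (AKO), 0.47 (DKO), 0.79 (AKDH) and 0.41 (AHDK), where the median over all genes was 0.01, 0.01, -0.01 and -0.02. Of these 16 values 1 was called. Id4 was at 0.50, 0.72 and 0.63 in AKDH uterus, against -1.19, -0.10 and 0.00 in WT uterus, and rose by 1.05 (SE 0.27, adjusted p = 0.0407). That call was lost without WT replicate 1 (0.67, adjusted p = 0.0622), WT replicate 2 or any one AKDH array, with an adjusted p of up to 0.101.

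Id1 was at 0.57, -0.10 and 1.03 in AKO uterus and at 0.09, 0.51 and 0.25 in DKO uterus. AKDH uterus was at 0.63, 0.38 and 0.00 and AHDK uterus at -0.21, 0.26 and 0.21, against -1.19, -0.53 and -0.36 in WT uterus. All 12 mutant arrays lay above all 3 WT arrays, and the share of all genes that did so was not counted. The Id1 difference from WT was 1.20 for AKO (SE 0.29, adjusted p = 0.143) and 0.98 for DKO (SE 0.29, adjusted p = 0.124). It was 1.03 for AKDH (SE 0.29, adjusted p = 0.0529) and 0.78 for AHDK (SE 0.29, adjusted p = 0.146), so none was called. The 4 comparisons use the same 3 WT uteri, so they are not independent. Id2 gave 0.60 in AKO (SE 0.16, adjusted p = 0.203) and 0.55 in AKDH (SE 0.16, adjusted p = 0.0663), and Id3 gave 0.64 in AHDK (SE 0.23, adjusted p = 0.139).

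Members whose 3 mutant arrays did not overlap the 3 WT arrays were also counted in uterus. In AKO uterus 4 members were higher and separate and 5 lower and separate, where 7.91% and 4.86% of all genes were. DKO uterus had 9 higher and 1 lower, where 11.6% and 9.27% of all genes were. AKDH uterus had 5 and 3, where 12.1% and 14.6% were, and AHDK uterus 7 and 2, where 14.2% and 15.4% were. In DKO uterus the separate genes included Tgfb1, at 0.33, 0.10 and 0.28 in DKO and 0.05, -0.20 and -0.09 in WT (0.32, SE 0.09, adjusted p = 0.105), and Acvr2b, lower at -0.13, -0.02 and -0.10 in DKO, against 0.35, 0.26 and 0.03 in WT (-0.30, SE 0.08, adjusted p = 0.109). In AHDK uterus Tgfbr2 gave 0.51 (SE 0.19, adjusted p = 0.143).

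A further lost allele of the other cluster was also compared. AKDH against AKO uterus called 0 members where 0% of all genes were called, and AHDK against DKO uterus called 0 where 0.0251% were. At an unadjusted p below 0.05 there were 2 members in each, where 10.3% and 7.47% of all genes passed. The smallest adjusted p of a member was 0.353 for Tgfb1 in AKDH against AKO (-0.25) and 0.494 for Bmp3 in AHDK against DKO (-0.31). They were followed by Smad6 (-0.26, adjusted p = 0.415), Id4 (0.48, adjusted p = 0.586) and Acvr2a (0.16, adjusted p = 0.605) in the first, and by Bmp7 (-0.77, adjusted p = 0.524), Acvr1b (0.33, adjusted p = 0.684) and Gdf7 (-0.91, adjusted p = 0.685) in the second.

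**Figure D5:**
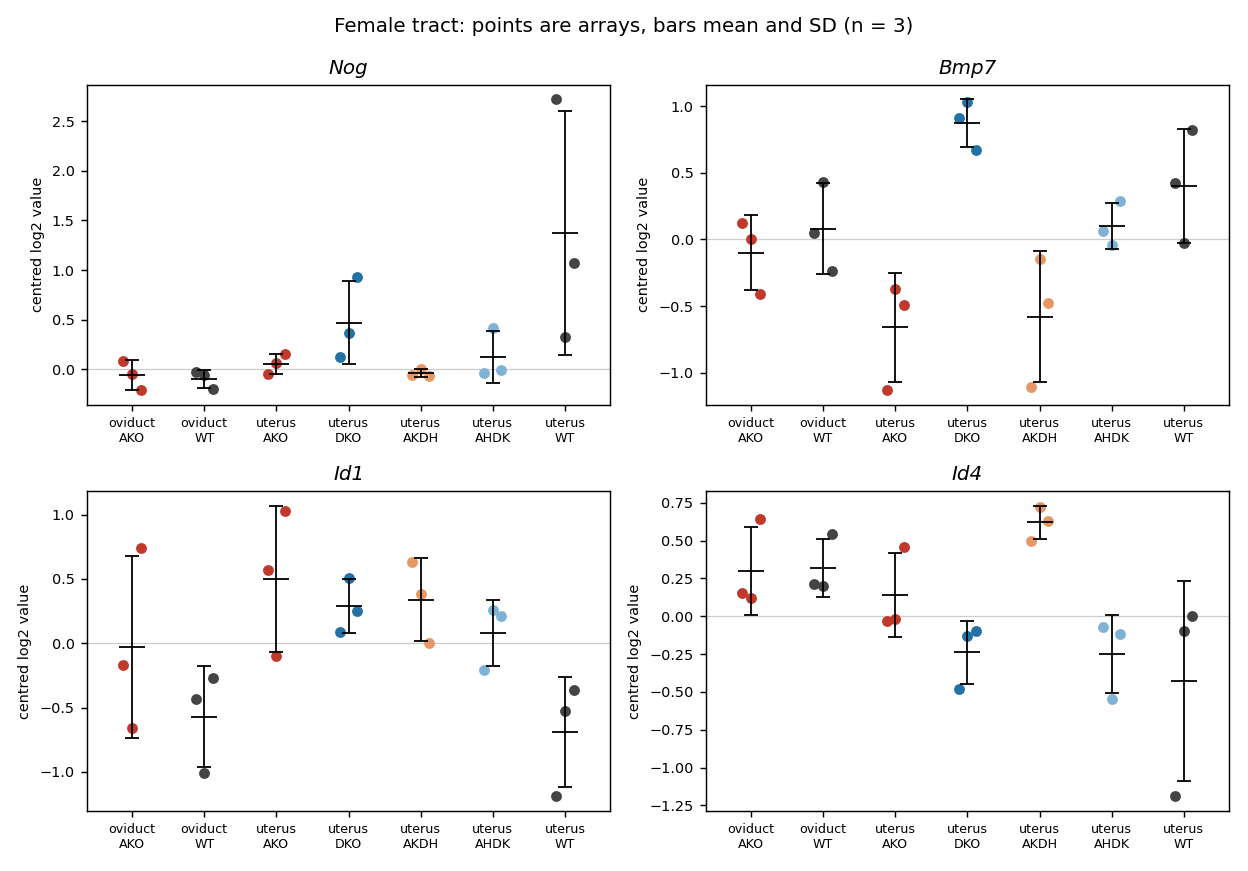
Centred log2 value of Nog, Bmp7, Id1 and Id4 in oviduct (AKO, WT) and uterus (AKO, DKO, AKDH, AHDK, WT); points are arrays, bars the mean and SD (n = 3). The 3 WT uterus arrays are spread from 0.32 to 2.72 for Nog and are the lowest uterus group for Id1.

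A set of small RNA genes moved with the uterus comparisons, and whether this comes from genotype or from the libraries was not tested. Their mean over 59 genes was 0.46, 0.24 and 0.01 for AKO uterus and -0.11, 0.16 and -0.02 for DKO uterus. It was -0.19, -0.43 and -0.37 for AKDH uterus and -0.23, 0.20 and -0.01 for AHDK uterus, against 0.97, 0.56 and 0.65 for WT uterus. Of these genes, 37 were called lower in AKDH uterus, 20 in AHDK uterus, 8 in DKO uterus and 1 in AKO uterus. With that mean as a covariate the Id4 difference in AKDH uterus turned to -0.34 (adjusted p = 0.974). The mean did not overlap between AKDH and WT uterus, so that fit cannot separate it from genotype. In WT oviduct against WT uterus 41 of the 59 were called lower. Macrophage and dendritic cell markers also moved with the uterus comparisons, with 8 of 11 called higher in AHDK (median 1.03), 2 in DKO (median 0.74), 1 in AKDH and 0 in AKO. Their mean was 1.02, 0.91 and 0.62 in AHDK uterus and 0.89, 0.32 and 0.49 in DKO uterus, against -0.25, -0.38 and -0.14 in WT uterus, and its part in the member values was not tested. Over the 10 comparisons of a mutant with WT, at most 4 of 10 epithelium, 2 of 10 endothelium, 1 of 10 skeletal muscle and 0 of 10 fibroblast and stroma markers were called.

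In AKO epididymis the 4 Id genes had negative differences, with 0 of 4 called and a median of -0.53. Id1 was at -1.29, -0.87 and -0.40 in AKO epididymis, against 0.15, -0.19 and -0.08 in WT epididymis (-0.81, SE 0.23, adjusted p = 0.17). Between WT tissues Smad7 was lower in epididymis, at -0.17, -0.67 and -0.64, against 0.24, 0.04 and 0.12 in vas (-0.62, SE 0.13, adjusted p = 0.00169). Quantile normalization lost this call in WT epididymis. Id4 was lower there as well, at -0.23, -0.52 and -0.29 in WT epididymis and 0.19, 0.12 and 0.55 in WT vas (-0.63, SE 0.18, adjusted p = 0.0129), with an adjusted p of up to 0.069 without vas WT replicate 3 or epididymis WT replicate 2. In the female tract Id4 was at 0.21, 0.20 and 0.54 in WT oviduct, against -1.19, -0.10 and 0.00 in WT uterus (0.75, SE 0.25, adjusted p = 0.0417). Without the oviduct array that stands apart it was 0.81 (adjusted p = 0.0601), and without uterus WT replicate 1 or any one oviduct array the adjusted p was up to 0.201.

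The spread of members over the groups was also read. The range of group means exceeded 1 for 14 of 38 members over the 7 female groups, where 15.5% of all genes did, and for 10 of 38 over the 7 male groups, where 12.9% did. The median range of a member was 0.84 in females and 0.58 in males. Over all 20 comparisons 20 members were called at least once and 18 never. The share of all genes called at least once was not counted, so these counts are not read as a trait of the members.

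Other genes of the pathway were read from a list of 84, of which 78 were measured. In AKO vas 13 were called (16.7%, against 9.35% of all genes), 11 higher and 2 lower, and in AKDH vas 21 (26.9%, against 24.3%), 11 higher and 10 lower. In AHDK vas 3 were called (3.85%, against 4.15%), all higher, and in DKO vas 1 (1.28%, against 5.87%), lower. Thbs1, which can activate latent TGF-beta, fell by 1.19 in AKO vas (SE 0.15, adjusted p = 0.000691) and by 1.41 in AKDH vas (adjusted p = 0.00011). Tgif1, a corepressor of TGF-beta-activated SMADs, rose by 1.10 in AKO vas (adjusted p = 0.00154) and by 0.96 in AKDH vas (adjusted p = 0.00143). Chrdl2, a Chordin-like BMP antagonist, rose by 0.91 in AKO (adjusted p = 0.00338), 1.05 in AKDH (adjusted p = 0.000624) and 0.64 in AHDK (adjusted p = 0.0376).

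Smad3, the transducer of TGF-beta and activin, rose by 0.54 in AKO vas (SE 0.10, adjusted p = 0.00513) and by 0.57 in AKDH vas (adjusted p = 0.00182). Acvr1c, a type I receptor known from fat cells, rose by 0.98 in AKO vas (adjusted p = 0.0221), by 1.40 in AKDH vas (adjusted p = 0.00154) and by 1.61 in AHDK vas (adjusted p = 0.00473). In these mutants 6, 8 and 8 of the 9 adipocyte markers were called higher. DKO vas called Nodal lower (-0.24, adjusted p = 0.0391). DKO against AKO vas called 7 higher and 8 lower (19.2%, against 17.8% of all genes), led by Thbs1 (1.09, adjusted p = 0.000761), Tgif1 (-1.04, adjusted p = 0.00124), the TGF-beta-activating integrin subunit Itgb6 (-1.01, adjusted p = 0.00206) and the secreted antagonist Sost (1.83, adjusted p = 0.00405).

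In uterus 5 of the 78 were called in AKDH (6.41%, against 6.58% of all genes), 2 higher and 3 lower. The ligand Gdf11 gave -0.96 (adjusted p = 0.0114), the antagonist Chrdl1 1.86 (adjusted p = 0.0147), the transducer Smad2 0.45 (adjusted p = 0.0181) and the ligand Gdf5 -0.41 (adjusted p = 0.0362). AHDK uterus called 1 (1.28%, against 3.53% of all genes), Fstl4, which was lower (-0.99, adjusted p = 0.0228), and AKO and DKO uterus, AKO oviduct and AKO epididymis called 0 of the 78. WT oviduct against WT uterus called 6 higher and 8 lower (17.9%, against 23.9% of all genes), with the BMP and Notch target Hey1 at 1.97 (adjusted p = 8.67e-07), the BMP-responsive uterine homeobox gene Msx1 at -2.33 (adjusted p = 1.15e-05), Gdf11 at -1.04 (adjusted p = 0.000941) and Kcp at -0.45 (adjusted p = 0.00124). WT epididymis against WT vas called 11 higher and 9 lower (25.6%, against 28.1% of all genes), with the TGF-beta early response gene Klf10 at -1.08 (adjusted p = 7.31e-06), Chrdl2 at 2.02 (adjusted p = 2.42e-05), the SMAD ubiquitin ligase Smurf2 at -0.68 (adjusted p = 0.000134) and the SMAD corepressor Ski at 0.52 (adjusted p = 0.000443).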

How the data were processed

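Total RNA of fresh tissue was copied into cDNA, fragmented and biotin-labelled, per the labels' protocols. The authors deposited 1 table of log values for 28856 probe sets, taken here as log2 values. No log base, summarisation or normalisation is given in the sources used here. Centring was read from the values, and a higher value was taken to mean more RNA. Array medians lay between -0.0538 and 0.0371, and array SDs between 0.177 and 0.644. The number of arrays limits the precision.

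The platform annotation gave 21789 probe sets 1 symbol, 1621 several and 5446 none, and 21698 matched RefSeq GRCm38.p6 by gene ID. Probe sets of a gene were averaged, giving 19938 genes. The arrays' own build is not named, so that assembly served for names, neighbours and promoter sequences.

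The limma 3.58.1 functions lmFit and eBayes (R 4.3.3) were run per tissue, and comparisons between tissues and interaction terms on all 21 arrays of the sex. Benjamini-Hochberg adjustment ran over all genes. The code was tested on simulated data. Alternatives were quantile normalization, a fit on only the groups compared, the replicate number as a block, a spread filter, probe sets kept apart, eBayes with trend and robust settings, marker scores as covariates, and leaving out arrays. Background correction, a dim filter and slide or scan blocks were not run because no scanner values were used.

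Members and gene lists were chosen with earlier results of these data known. Named genes were every called member, members of smallest adjusted p until 4 per comparison, and up to 4 called other pathway genes per comparison. Marker lists covered adipocyte, smooth muscle, sperm, proximal epididymis, ovary, oviduct, macrophage and dendritic cell, epithelium, endothelium, fibroblast and stroma, skeletal muscle and small RNA genes. Same-numbered arrays deviated together in every pair for 4 of 42 pairs of groups: uterus AKO with oviduct AKO, oviduct WT with oviduct AKO, vas WT with epididymis WT, and vas AKO with epididymis AKO. Whether same-numbered arrays share animals is not stated. The main tests between tissues and the interaction terms treated all arrays as independent, which their p-values rest on. With 3 against 3 arrays an exact permutation test cannot go below 0.1.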

Additional observations from a re-analysis of the deposited data

Results flagged for a closer look

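The effect of AKO differed between the male tissues for 2 members and 2 other pathway genes, by limma's interaction term over all male arrays with adjusted p below 0.05. These are 5.26% of members and 2.56% of the 78 other pathway genes, where 7.22% of all genes were called. The effect in epididymis minus the effect in vas was -1.01 for Bmpr1b (SE 0.20, adjusted p = 0.00646) and 0.58 for Tgfb1 (SE 0.15, adjusted p = 0.0319). It was -1.28 for Chrdl2 (SE 0.37, adjusted p = 0.0484) and -0.73 for Tgif1 (SE 0.21, adjusted p = 0.0484). The Tgfb1 call was lost in 6 of the 12 fits that left out 1 array. Quantile normalization and the trend and robust settings also lost it.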

How the results depend on the processing

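Of 45 called member values, 19 stayed called in every fit that left out 1 array, 12 under every other alternative and 11 under both. Counts of members called were more than 1.5 times off under these settings. Quantile normalization gave 0 in DKO vas, 0 in AKDH uterus, 1 in AKDH against AKO vas, 2 in DKO against AKO uterus, 6 in WT oviduct against WT uterus and 6 in WT epididymis against WT vas. Calls lost to it were Tgfb3, Acvr1b, Tgfbr1 and Id4 between the female WT tissues. Between the male WT tissues they were Smad7, Fst, Ltbp1, Acvr1, Bmp7 and Tgfbr1. A fit on only the groups compared gave 2 in AKO vas, 4 in AKDH vas, 11 in DKO against AKO vas, 0 in AKDH uterus, 0 in DKO against AKO uterus and 4 in WT oviduct against WT uterus. In that last comparison it lost the calls of Tgfb3, Acvr1b, Amhr2, Chrd, Nog and Id4. The more variable 50% of genes gave 4 in AKDH uterus and 2 in DKO against AKO uterus, and separate probe sets gave 2 in AKDH uterus. Trend and robust settings gave 3 in AKDH uterus, 0 in DKO against AKO uterus and 1 for the male interaction. The small RNA covariate gave 0 in AKDH uterus and 0 in DKO against AKO uterus, the adipocyte covariate 1 in AKO vas and 1 in AKDH vas, and the smooth muscle covariate 2 in AHDK vas, 2 in DKO vas and 2 in DKO against AKO vas. The smooth muscle covariate gave 4 in AKO vas and 6 in AKDH vas, of which 1 in each, Bmpr1b, was among the members first called. With the replicate block, AKDH uterus had 2, DKO against AKO uterus 0, WT oviduct against WT uterus 12 and WT epididymis against WT vas 13; Id4 in AKDH vas (adjusted p = 0.06) and Bmp3 in DKO against AKO uterus (adjusted p = 0.0539) lost their calls.

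Leaving out 1 array gave 0 to 3 members in AKDH uterus, 0 to 1 in AHDK uterus, 1 to 3 in AKO vas, 0 to 2 in DKO vas, 3 to 8 in AKDH vas, 0 to 1 in AHDK vas, 0 to 1 in AKO epididymis, 0 to 2 in DKO against AKO uterus, 4 to 4 in DKO against AKO vas, 6 to 12 in WT oviduct against WT uterus, 5 to 10 in WT epididymis against WT vas and 1 to 4 for the male interaction. Direction turned for Id4 with the small RNA covariate, to -0.34 in AKDH uterus and to -0.27 in AKDH against AKO uterus, and for Bmpr2 in AKDH vas with the smooth muscle covariate, to 0.02; the cause was not tested. Signal over background is unknown, so faint probe sets cannot be set apart.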
